A study of Mus musculus with 9 samples.

Results

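The Meis1, Meis2 and Shox2 loci were examined for binding of Hoxa13 and Hoxa11 in the mouse limb, with the question of which protein dominates there. A locus was a fixed stretch of mm9, chr11:18500000-19200000 for Meis1, chr2:115400000-116200000 for Meis2 and chr3:66300000-67200000 for Shox2, and a peak belonged to it when its start lay inside. By this rule 403 peaks of the 243649 in the 5 deposited lists were members, 103 at Meis1, 107 at Meis2 and 193 at Shox2. Binding was mapped by sequencing of DNA recovered by chromatin immunoprecipitation (ChIP-seq), with home-made antibodies, in wild-type embryos of the outbred ICR strain. For Hoxa13 there was 1 library each of the E11.0 (embryonic day 11.0) autopod, the future hand and foot, the E11.5 limb bud and the E12.5 limb bud. Hoxa11 was mapped in the E11.5 limb bud, in replicates 1 and 2. The antibody amount was 10 µg for Hoxa13 at E11.0 and E11.5 and 8 µg for each Hoxa11 replicate, and is not given for E12.5. Protein cannot be told apart from the antibody used for it, so peak numbers of the proteins are not a measure of occupancy. The E11.0 chromatin was pooled from 11 pairs of autopods and the E11.5 chromatin came from whole limb buds of a litter, while E12.5 was prepared by an earlier procedure, so stage cannot be told apart from tissue or protocol. One input library, by its title, served both the E11.5 Hoxa13 library and Hoxa11 replicate 1, and none of the 4 input libraries was analysed here. All tissue was a mixture of limb cells, and a peak list does not say which of them carried a bound site.

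Meis1 and Meis2 encode homeodomain proteins of the TALE class, which bind DNA together with Hox and Pbx proteins and mark the proximal limb, where the upper arm and thigh form. Their transcription is shut off in the distal limb bud as it grows out. Shox2, another homeobox gene of the proximal limb, is needed for growth of the humerus and femur. Hoxa11 acts in the forearm and lower leg and Hoxa13 in the hand and foot, so both proteins work distal to the domain where the Meis genes and Shox2 are most active. In the annotation of GRCm38.p6, a later build than that of the peaks, the nearest protein-coding neighbours are Etaa1 and Spred2 for Meis1, BC052040 and Tmco5 for Meis2, and Veph1 and Rsrc1 for Shox2, of which Rsrc1 overlaps Shox2. Positions of peaks below are 1-based in mm9. No mm9 annotation was used here, so peaks were not placed in exons, introns or promoters, and a site in a locus is not assigned to its gene.

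The 250 bases before the annotated start of each gene are printed because they show how the letters that posterior Hox proteins prefer lie at these genes. They come from RefSeq on GRCm38.p6, all on the minus strand, at chr11:19018970-19019219 for Meis1, chr2:116064620-116064869 for Meis2 and chr3:66981772-66982021 for Shox2, and read 5′ to 3′ along the gene. Capitals mark TTTAC or TTTAT on either strand (GTAAA or ATAAA on the other).
Meis1: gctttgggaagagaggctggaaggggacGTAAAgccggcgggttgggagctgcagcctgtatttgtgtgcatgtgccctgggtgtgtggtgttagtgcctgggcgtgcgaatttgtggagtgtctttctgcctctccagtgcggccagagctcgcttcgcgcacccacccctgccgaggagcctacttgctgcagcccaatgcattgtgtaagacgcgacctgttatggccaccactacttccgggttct
Meis2: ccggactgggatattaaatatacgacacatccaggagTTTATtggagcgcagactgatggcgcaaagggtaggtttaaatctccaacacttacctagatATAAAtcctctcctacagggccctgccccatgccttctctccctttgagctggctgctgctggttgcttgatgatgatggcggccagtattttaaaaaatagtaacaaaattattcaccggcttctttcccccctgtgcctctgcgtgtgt
Shox2: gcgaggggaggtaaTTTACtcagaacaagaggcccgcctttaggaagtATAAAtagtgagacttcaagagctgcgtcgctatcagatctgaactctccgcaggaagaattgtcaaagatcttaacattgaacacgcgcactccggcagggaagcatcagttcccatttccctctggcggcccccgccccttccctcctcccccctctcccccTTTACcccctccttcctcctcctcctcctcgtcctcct
The Meis1 stretch held the first of these words once and the Meis2 stretch held the second in 2 places, while Shox2 held the first in 2 places and the second once. Such short words are common: over 32851 promoter stretches of this length, 28.3% held TTTAC on either strand. The word TTTAT was in 37.3% of them. A word bound by Meis proteins, TGACAG, was in none of the 3 stretches on either strand and in 15.9% of all stretches. A match is a description of these letters and not a binding site.

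By number of peaks each Hoxa13 list exceeded both Hoxa11 lists in all 3 loci. Hoxa11 was mapped at E11.5 only, so the E11.0 and E12.5 counts have no Hoxa11 list of their own stage beside them. The Meis1 locus had 16 (E11.0), 64 (E11.5) and 18 (E12.5) Hoxa13 peaks, against 4 and 1 of Hoxa11 in replicates 1 and 2. At Meis2, Hoxa13 had 22, 67 and 15 peaks in the same order, against 2 and 1 of Hoxa11. At Shox2, Hoxa13 had 33, 111 and 35 peaks, against 10 and 4 of Hoxa11. No Hoxa11 list reached the count of any Hoxa13 list in any of these loci. The lists themselves differ in length, with 50890, 143460 and 44699 Hoxa13 peaks in stage order, against 2953 and 1647 Hoxa11 peaks, so these counts do not compare the proteins on equal terms.

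Relative to the full length of each list the order of the proteins turned in all 3 loci. The intervals separated the proteins only for replicate 1 at Shox2. At Meis1 and Meis2 the order did not hold in both replicates under every setting tried below. Meis1 held 0.0314%, 0.0446% and 0.0403% of the Hoxa13 lists in stage order, against 0.135% and 0.0607% of the Hoxa11 lists. Meis2 held 0.0432%, 0.0467% and 0.0336% for Hoxa13, against 0.0677% and 0.0607% for Hoxa11. At these loci the Hoxa11 shares rest on 1 to 4 peaks and their intervals overlap those of Hoxa13. Shox2 held 0.0648% of the E11.0 Hoxa13 peaks (exact 95% interval 0.0446 to 0.0911), 0.0774% of the E11.5 peaks (0.0637 to 0.0932) and 0.0783% of the E12.5 peaks (0.0545 to 0.109), against 0.339% of Hoxa11 replicate 1 (0.163 to 0.622) and 0.243% of replicate 2 (0.0662 to 0.621). The interval of Hoxa11 replicate 1 lay above those of the 3 Hoxa13 lists, while that of replicate 2, which rests on 4 peaks, overlapped them. In all 3 loci together the shares were 0.140% (0.109 to 0.176), 0.169% (0.148 to 0.191) and 0.152% (0.118 to 0.193) for Hoxa13 at the successive stages, against 0.542% (0.310 to 0.878) and 0.364% (0.134 to 0.791) for Hoxa11. Again only replicate 1 stood clear of Hoxa13. Such intervals express counting error alone, without the variation among embryos, and with 1 library per Hoxa13 stage and 2 of Hoxa11 no test between proteins or stages was made.

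The number of Hoxa13 peaks per Hoxa11 peak gives the same shift by construction, since it uses the same counts as the shares. For the stage that both proteins share, E11.5, the 3 loci had 15.1 Hoxa13 peaks for each Hoxa11 replicate 1 peak, against 48.6 in the whole lists. With replicate 2 the ratio was 40.3 in the loci, against 87.1 in the whole lists. Shox2 had the lowest of these ratios, 11.1 with replicate 1 and 27.8 with replicate 2. Meis2 had the highest, 33.5 and 67.0, and Meis1 lay between them at 16.0 and 64.0. Ratios at Meis1 and Meis2 rest on 1 to 4 Hoxa11 peaks.

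**Figure D1:**
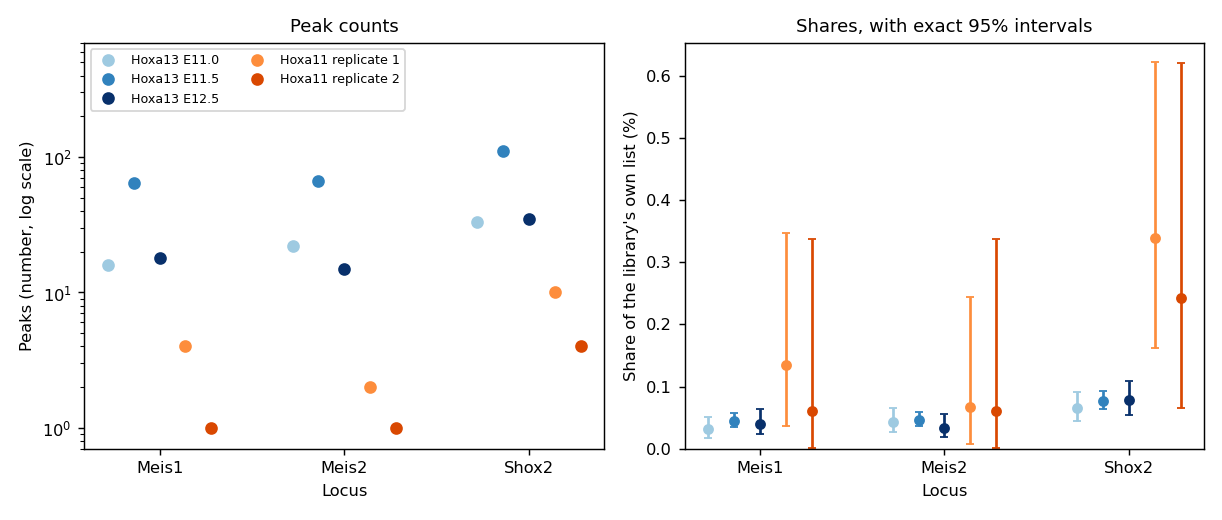
Number of peaks in each locus (left, log scale) and share of each library's own list (right, percent, with exact 95% intervals for counting error), for the 3 Hoxa13 libraries in blue and the 2 Hoxa11 replicates in orange. Hoxa13 leads by number throughout, from 15 to 111 peaks against 1 to 10, while the Hoxa11 shares, 0.0607% to 0.339%, are above the Hoxa13 shares of the same locus, with overlapping intervals except for replicate 1 at Shox2.

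At an equal list length, which keeps the widest 1647 peaks of each list, few peaks were left and the proteins could not be told apart. The 3 loci then held 3, 5 and 3 Hoxa13 peaks in stage order, against 7 Hoxa11 peaks in replicate 1 and 6 in replicate 2. Meis1 kept 0 peaks in each list but Hoxa11 replicate 2, where it kept 1. Meis2 kept 2, 2 and 1 Hoxa13 peaks, against 1 and 1 Hoxa11 peaks. Shox2 kept 1, 3 and 2 Hoxa13 peaks, against 6 and 4 Hoxa11 peaks. Replicate 2 is itself the list of 1647, so it lost no peaks. Counting intervals of all 5 lists overlapped (from 0.0376 to 0.531% for the first and last Hoxa13 stage and 0.0986 to 0.707% for the middle one, against 0.171 to 0.874% and 0.134 to 0.791% for Hoxa11). Peak width stands in for strength here because 4 of the 5 lists give no score.

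On average all 3 loci held more Hoxa13 peaks per window than the genome, though by little for Meis2 at E12.5. In windows of 100 kb, Shox2 averaged 3.67, 12.3 and 3.89 Hoxa13 peaks in stage order, against means of 1.93, 5.53 and 1.70 over 25821 windows of chromosomes 1 to 19, X and Y. Meis1 averaged 2.29, 9.14 and 2.57 and Meis2 averaged 2.75, 8.38 and 1.88. The share of all windows below the mean of a locus ran from 55.8% (Meis2 at E12.5) to 94.5% (Shox2 at E11.5). These means carry no interval. Each of the 24 windows of the loci held at least 1 Hoxa13 peak at every stage, whereas 72.1% (E11.0), 94.9% (E11.5) and 71.4% (E12.5) of all windows did. Hoxa11 replicate 1 had a peak in 9 of the 24 and replicate 2 in 5, against 8.73% and 4.77% of all windows. For Hoxa11 replicate 1 the mean per window was 1.11 at Shox2, 0.571 at Meis1 and 0.250 at Meis2, against 0.112 over all windows.

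With the 3 stages summed, the window richest in Hoxa13 held Hoxa11 at Shox2 and not at Meis1 or Meis2. At Shox2 it was chr3:66800001-66900000, with 7, 18 and 6 Hoxa13 peaks in stage order and 3 and 1 Hoxa11 peaks of replicates 1 and 2, a Hoxa11 total equalled in that locus by chr3:66500001-66600000. A count of 18 or more at E11.5 occurred in 0.697% of all windows. At Meis1 the window with most Hoxa13 peaks, chr11:18600001-18700000, had 4, 13 and 5 of them and 0 Hoxa11 peaks in either replicate. At Meis2 it was chr2:116000001-116100000, with 8, 8 and 3 Hoxa13 peaks and again 0 of Hoxa11. At E11.5 alone the Meis2 windows with most Hoxa13 were the first 3 of the locus, with 11, 12 and 11 peaks and 0 of Hoxa11. All 3 Hoxa11 peaks of the Meis2 locus lay in chr2:115700001-115800000, where Hoxa13 was sparsest, with 1, 4 and 1 peaks.

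**Figure D2:**
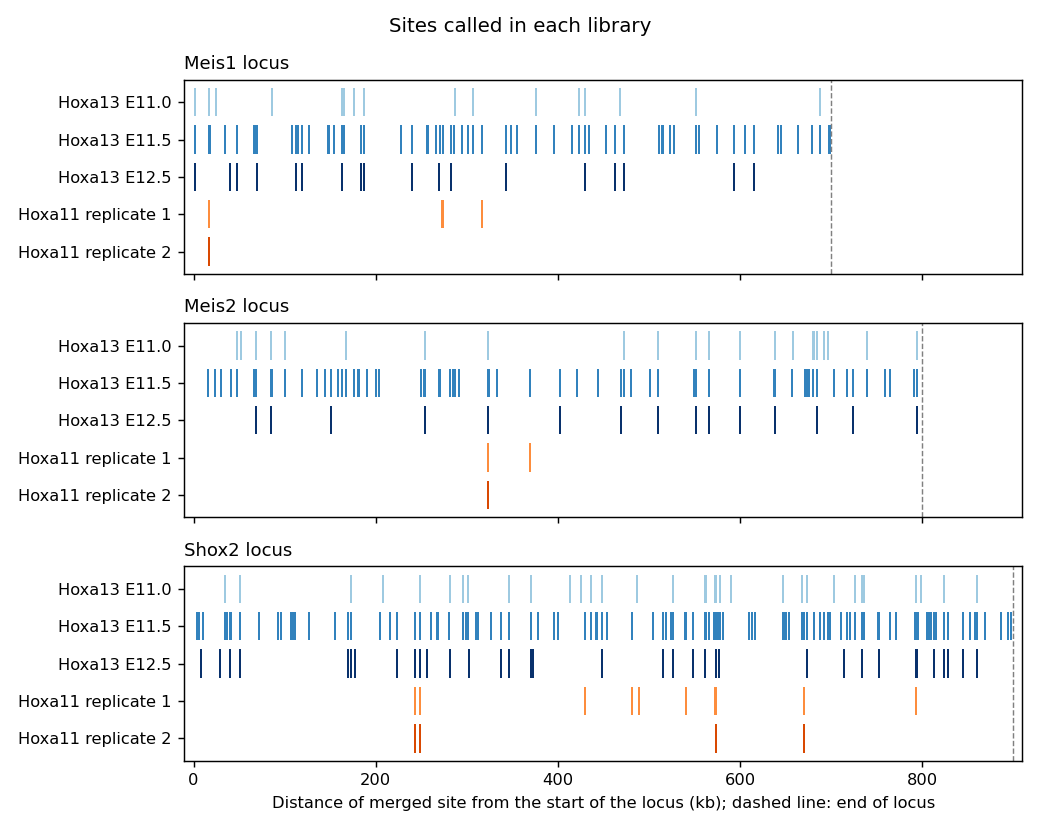
Position of every site with a peak in each library, as the distance in kb from the start of the locus, for Meis1, Meis2 and Shox2. Each tick is a merged site, in blue for Hoxa13 and orange for Hoxa11. Hoxa13 at E11.5 covers each locus along its length, while Hoxa11 replicate 1 has 4 ticks at Meis1, 2 at Meis2 and 10 at Shox2.

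To count positions rather than peaks, peaks that overlapped by at least 1 bp were merged across the 5 libraries, which gave 275 sites in the loci and 176371 in the whole genome. Hoxa13 alone held 259 of the 275 sites (94.2%, 95% interval 90.7 to 96.6), against 98.1% of all sites. Both proteins shared 13 sites (4.73%, 2.54 to 7.95), against 1.43% of all sites. Hoxa11 alone held 3 (1.09%, 0.226 to 3.15), against 0.521% of all sites. By locus the shared sites numbered 3 of 72 at Meis1, 2 of 72 at Meis2 and 8 of 131 at Shox2, and the sites of Hoxa11 alone 1, 0 and 2. Of the 16 sites with Hoxa11, 13 also held Hoxa13 (81.25%, 54.4 to 96.0), against 73.2% of the Hoxa11 sites of the whole genome, which lies inside that interval. That count rests on the long E11.5 list, since without it 6 Hoxa11 sites held Hoxa13 and 10 did not. Without Hoxa11 replicate 1, 6 sites were shared and 0 held Hoxa11 alone.

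Among the Hoxa13 lists, Hoxa11 peaks in the loci met that of the same stage, E11.5, most often. That list is also the longest and covers 3.47% of the loci, against 0.808% (E11.0) and 0.527% (E12.5). Stage and list length therefore cannot be told apart here. Of the 16 peaks of replicate 1, 13 (81.25%, 54.4 to 96.0) met an E11.5 Hoxa13 peak, against 71% of the whole list. Only 5 of them (31.2%, 11.0 to 58.7) met Hoxa13 at E12.5, against 48.8%, and 5 at E11.0, against 23.9%. In replicate 2 all 6 peaks met E11.5 Hoxa13 (54.1 to 100), against 70.8% of the list, and 4 of 6 met each of the other stages, against 30.5% (E11.0) and 55.7% (E12.5) of the list. Each of these whole-list shares lay inside the interval of the loci, so on so few peaks the loci cannot be set apart from the rest of the Hoxa11 lists in this respect. All 6 replicate 2 peaks met replicate 1, against 64.6% of that list, and 6 of 16 replicate 1 peaks met replicate 2, against 35.8%.

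Counted from the other protein, Hoxa11 met 13 of the 242 E11.5 Hoxa13 peaks of the loci (5.37%, 2.89 to 9.01), against 1.67% of the E11.5 list. At Shox2 it met 8 of 111 (7.21%, 3.16 to 13.7), at Meis1 3 of 64 (4.69%, 0.977 to 13.1) and at Meis2 2 of 67 (2.99%, 0.364 to 10.4). The list-wide share lay below the interval at Shox2 and inside it at Meis1 and Meis2. This count uses the same Hoxa11 peaks as the shares above. Of the E11.0 peaks Hoxa11 met 5 of 71, against 1.79% of that list, and of the E12.5 peaks 5 of 68, against 4.09%.

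The E11.5 Hoxa13 peaks with Hoxa11 were wider than those without. Their widths had a median of 443 bp and ran from 260 to 1683 bp over 13 peaks, against a median of 303 bp and a range of 203 to 885 bp over 229 peaks without Hoxa11. The whole list showed the same gap, 463 bp over 2401 peaks with Hoxa11 against 285 bp over 141059 peaks without. A wider peak also offers more bases for an overlap, and the part this plays was not tested.

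**Figure D3:**
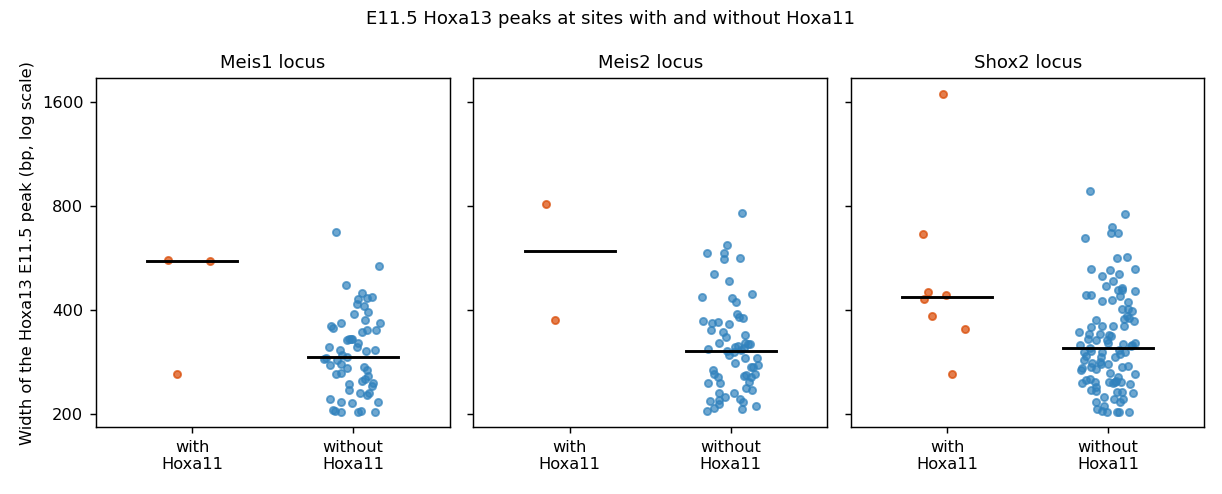
Width of each E11.5 Hoxa13 peak (bp, log scale) at sites with a Hoxa11 peak of either replicate (orange) and without (blue), in the Meis1, Meis2 and Shox2 loci. Black lines are medians. The widest peak of the 3 loci, 1683 bp at Shox2, carries Hoxa11, and both groups overlap in each locus.

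The most prominent site of the 3 loci lay at Shox2, at chr3:66874023-66875705. All 5 libraries had a peak there, 344, 1683 and 705 bp wide for Hoxa13 in stage order and 1443 and 1144 bp for Hoxa11 in replicates 1 and 2. The E11.0 peak was less extreme, at percentile 83.7 of its list by width, and the widest E11.0 peak of Shox2, 731 bp, lay elsewhere. The E11.5 peak ranked 42nd by width among 143460, and the E12.5 peak 109th among 44699, so both stood near the top of their lists. In the authors' deposited values for replicate 2, the only list that has them, its fold enrichment, a ratio, was 10.6 and its −log10 q-value 46.3, rank 24 of 1647. Sites found in all 5 libraries made up 3 of the 275 in the loci, against 0.16% of all sites.

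A second site of all 5 libraries at Shox2 lay at chr3:66548251-66548943. Here the Hoxa11 peaks were the wider ones: 205, 384 and 185 bp for the successive Hoxa13 stages, against 693 and 600 bp for Hoxa11. The authors' fold enrichment for replicate 2 was 7.96, with a −log10 q-value of 40.1 and rank 36. A neighbour 4152 bp away, chr3:66543437-66544098, had Hoxa13 peaks of 662 bp at E11.5 and 346 bp at E12.5 and none at E11.0, and Hoxa11 peaks of 313 and 418 bp with an authors' fold of 4.33. Within their own lists these Hoxa13 widths stood at percentiles 98.1 (E11.5) and 96 (E12.5), and the Hoxa11 widths at 59.8 and 77.8. The site and its neighbour made chr3:66500001-66600000 the window of the locus with most replicated Hoxa11 binding, at 2 peaks in each replicate.

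The other Hoxa11 sites of the Shox2 locus were weaker or seen in replicate 1 alone. At chr3:66970439-66971064 both replicates had a peak, 398 and 224 bp wide with an authors' fold of 3.59, beside Hoxa13 at E11.5 (443 bp) and no other stage. At chr3:67092924-67093381 replicate 1 (224 bp) met Hoxa13 at all 3 stages (338, 449 and 110 bp, the last being the narrowest width in its list). At chr3:66730175-66730526, chr3:66781564-66781897 and chr3:66840468-66840898 replicate 1 had peaks of 221, 199 and 284 bp, and the Hoxa13 peaks of 352, 260 and 431 bp there were those of E11.5 only. The remaining pair held no Hoxa13 peak. Of these, the replicate 1 peak at chr3:66872964-66873235 (272 bp) lay 60 bp from an E11.5 Hoxa13 peak and 787 bp from the prominent site, whereas that at chr3:66789205-66789472 (268 bp) lay 1659 bp from the nearest E11.0 peak, 7307 bp from E11.5 and 25631 bp from E12.5.

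Sites with both Hoxa11 replicates numbered 6 of the 275, 1 at Meis1, 1 at Meis2 and 4 at Shox2, against 0.578% of all sites. The one at Meis1 lay at chr11:18517374-18517931. Hoxa13 had peaks of 187 bp at E11.0, the narrowest width in that list, and 558 bp at E11.5, with none at E12.5, beside Hoxa11 peaks of 258 and 296 bp and an authors' fold of 4.83. Replicate 1 alone had the other sites. At chr11:18773725-18774167 and chr11:18816709-18817263 its peaks of 257 and 243 bp met E11.5 Hoxa13 peaks of 261 and 555 bp, and no peak of another stage. At chr11:18772692-18772902 its peak of 211 bp met no Hoxa13 peak, the nearest being 1004 bp away at E11.5. No Hoxa11 site of Meis1 met Hoxa13 at E12.5, out of 18 E12.5 peaks in that locus. At this number a share of up to 18.5% of them is allowed, and with 4.09% of the whole E12.5 list meeting Hoxa11 the 0 is not set apart from the background.

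At Meis2 the site chr2:115722940-115723747 was shared by all 5 libraries. Its Hoxa13 peaks measured 557, 808 and 209 bp in stage order, and its Hoxa11 peaks 529 and 282 bp. The E11.5 peak was the widest of the Meis2 locus, yet the authors' fold of 3.11 for Hoxa11 replicate 2 was the lowest of the 6 replicate 2 peaks in the loci and ranked 1482 of 1647 by q-value. The second Hoxa11 site, chr2:115768874-115769247, had a replicate 1 peak of 222 bp and an E11.5 Hoxa13 peak of 374 bp. Over the 6 peaks of replicate 2 in the loci the authors' fold had a median of 4.58 and a range of 3.11 to 10.6, against a median of 3.90 and a range of 1.39 to 17.7 over the list.

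Hoxa13 sites of the loci were next compared between stages. Of the 71 E11.0 peaks, 53 (74.6%, 62.9 to 84.2) met an E11.5 peak, against 58.1% of the whole E11.0 list. Of the 68 E12.5 peaks, 55 (80.9%, 69.5 to 89.4) did, against 70.7% of the E12.5 list. For E11.0 and E12.5 directly, 29 of 71 E11.0 peaks (40.8%, 29.3 to 53.2) met E12.5, against 30.7%, and 29 of 68 at E12.5 (42.6%, 30.7 to 55.2) met E11.0, against 35.6%. The whole-list share lay below the interval of the loci for E11.0 peaks meeting E11.5 and inside it for the others. The loci were also denser in E11.5 peaks, with a mean of 10.1 per 100 kb window against 5.53 over all windows. The whole-list share is therefore not a like background, and the part that density plays was not tested. Of the 242 E11.5 peaks, 162 met no other stage (66.9%, 60.6 to 72.8), against 67.4% of that list, which is the background level.

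The Meis loci had unlike shares of E12.5 peaks on E11.0 peaks. At Meis2, 11 of the 15 E12.5 peaks lay on an E11.0 peak (73.3%, 44.9 to 92.2), and at Meis1 3 of 18 did (16.7%, 3.58 to 41.4), while the list as a whole had 35.6%. The intervals of the 2 loci did not overlap, that of Meis2 lay above the list and that of Meis1 included it. Counted from the early stage the intervals did overlap, with 11 of 22 E11.0 peaks of Meis2 (50%, 28.2 to 71.8) and 3 of 16 of Meis1 (18.75%, 4.05 to 45.6) meeting E12.5, against 30.7% of the E11.0 list. At Shox2 15 of 35 E12.5 peaks met E11.0 (42.9%, 26.3 to 60.6). Every E12.5 peak of Meis2 met an E11.5 peak (15 of 15, 78.2 to 100), as did 16 of 18 at Meis1 (88.9%, 65.3 to 98.6) and 24 of 35 at Shox2 (68.6%, 50.7 to 83.1), against 70.7% of the list. Peaks that met no other stage numbered 10 of 35 at Shox2 (28.6%, 14.6 to 46.3), 2 of 18 at Meis1 (11.1%, 1.38 to 34.7) and 0 of 15 at Meis2 (0 to 21.8), against 24.5% of the E12.5 list, which lies above the interval of Meis2 and inside the others. The pair of Meis loci was singled out after these values were seen, and the difference was not tested.

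**Figure D4:**
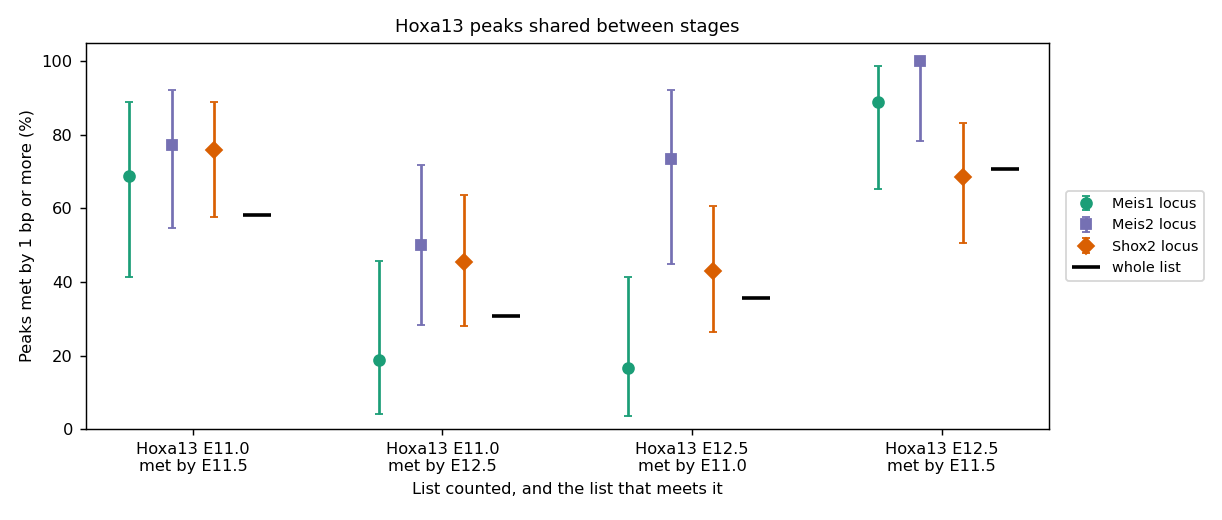
Share of the Hoxa13 peaks of the Meis1, Meis2 and Shox2 loci at E11.0 and E12.5 that met a peak of another stage by at least 1 bp, with exact 95% intervals for counting error. Black bars give the share of the whole list. At E12.5, 73.3% of Meis2 peaks and 16.7% of Meis1 peaks met E11.0, with 35.6% for the whole list, while the intervals of the Meis loci overlap where E11.0 peaks are counted.

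Sites with Hoxa13 at all 3 stages numbered 28 of the 275 (10.2%, 6.87 to 14.4), against 7.81% of all sites. Meis2 had 11 of 72 (15.3%, 7.88 to 25.7), Shox2 14 of 131 (10.7%, 5.97 to 17.3) and Meis1 3 of 72 (4.17%, 0.868 to 11.7), and each of these intervals takes in the share of all sites except that of Meis2, which lies just above it. Of the 28 sites, 4 also held Hoxa11 (14.3%, 4.03 to 32.7), against 5.17% of such sites in the whole genome, a share inside that interval. At Meis1 the constant sites were chr11:18501840-18502270, chr11:18662945-18663354 and chr11:18930205-18930651, with E11.5 widths of 431, 410 and 447 bp, and none of them held Hoxa11. At the first of these Hoxa13 also had its widest E11.0 and E12.5 peaks of the Meis1 locus, 320 and 244 bp.

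At Meis2 the constant site with the widest peaks without Hoxa11 was chr2:116038441-116039205. It measured 587, 765 and 382 bp in stage order, and the first and last were the widest of the locus at their stages. Next in summed width came chr2:115468818-115469378 (367, 561 and 313 bp), chr2:115999960-116000467 (433, 486 and 228 bp) and chr2:115966035-115966620 (317, 586 and 221 bp). None of these held Hoxa11. At Shox2, chr3:66826115-66826862 was the widest site at E11.0 with 731 bp, beside 693 bp at E11.5 and 363 bp at E12.5, and it too held no Hoxa11 peak. It was followed by chr3:67033967-67034633 (451, 667 and 278 bp) and chr3:66973689-66974573 (187, 885 and 127 bp), both without Hoxa11. The widest E11.5 peak of the Meis1 locus, chr11:19163369-19164042 at 674 bp, was not a constant site.

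Pooled over the loci, the median widths of Hoxa13 peaks were close to those of their lists. The medians for Hoxa13 in the loci were 233, 306 and 162 bp in stage order, against 245, 286 and 154 bp in the whole lists. For Hoxa11 they were 263 and 357 bp, against 283 bp in both lists, the replicate 2 median resting on 6 peaks. The E11.5 Hoxa13 peaks of the loci leaned wide, with 144 of 242 in the widest 50% of their list. At E11.0 this held for 35 of 71 and at E12.5 for 38 of 68. Some medians of single loci lay further off. Meis2 was above the list with 289.5 bp at E11.0 and 204 bp at E12.5, and Meis1 below it with 222 bp at E11.0. At the narrowest width of their list stood 12 of the 71 E11.0 peaks (16.9%, 9.05 to 27.7), 7 of the 242 E11.5 peaks (2.89%, 1.17 to 5.87) and 11 of the 68 E12.5 peaks (16.2%, 8.36 to 27.1), against 13.4%, 3.28% and 8.63% of the whole lists, each inside its interval. Hoxa13 peaks covered 0.808% (E11.0), 3.47% (E11.5) and 0.527% (E12.5) of the 2.40 Mb of the loci, against 0.251% and 0.124% for the Hoxa11 replicates.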

How the data were processed

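Peak lists of the 5 ChIP libraries were used as deposited. The tools named in the submitters' processing notes are MACS2 2.1.0, Bowtie2 2.2.2 and CASAVA 1.4, and the build is mm9; roles, thresholds, duplicate handling and the use of input are not given in the sources used here. Lists of Hoxa13 and of Hoxa11 replicate 1 hold chromosome, start and end. The authors deposited for Hoxa11 replicate 2 also a score, a ratio called fold enrichment, and −log10 p-values and q-values, used here only to describe that list. Read depth per library is unknown, and peak counts are not depths.

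Peaks were counted with Python 3.11.15 (pandas 2.3.3, scipy 1.17.1). Overlap meant 1 bp or more, and shares carry exact Clopper-Pearson intervals at 95%, for counting error only. The overlap and merging steps were tested on simulated data. Named positions were all Hoxa11 peaks, up to 5 constant Hoxa13 sites per locus by summed width, the widest Hoxa13 peak per list and the richest 100 kb window. The summed width took in Hoxa11 peaks as well, which favours sites that hold them. Members, tests and lists were chosen with earlier results of these data known. Whether both Hoxa11 replicates came from separate litters is not given. Promoter letters come from RefSeq on GRCm38.p6, where all 3 genes matched by symbol, and no coordinates were converted. Peak sequences on mm9 were not used here.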

Additional observations from a re-analysis of the deposited data

How the results depend on the processing

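Of 178 recomputed values, 125 stayed within the counting interval of the reported share or within 1.5 times the reported count. Some of the 125 could not move, since E12.5 is itself the list of 44699 peaks and Hoxa11 replicate 2 that of 1647. Intervals that rest on few peaks are also wide, so the 125 is no measure of stability. Hoxa13 sites outnumbered Hoxa11 sites except at equal list length. Sites of Hoxa13 only, both proteins and Hoxa11 only (259, 13 and 3 as reported) were 4, 2 and 6 with the widest 1647 peaks of each list, 151, 7 and 0 with the widest 50%, and 104, 6 and 10 without the E11.5 Hoxa13 list, an alternative chosen after seeing the data. Leaving out a Hoxa11 replicate gave 259 to 266, 6 to 13 and 0 to 3, the lower shared count being without replicate 1.

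The share of peaks in the loci was 0.182% for Hoxa13 E11.0 with the widest 1647 peaks. For E11.5 it was 0.198% with edges 100 kb further out, 0.125% further in, 0.201% with the widest 50%, 0.304% with the widest 1647 and 0.213% with the widest 44699, a length chosen after seeing the data. For E12.5 it was 0.112% with edges further in. These edges change the length counted. In the 3 loci together the Hoxa11 shares remained between 0.304% and 0.610%, but at single loci some fell to 0. With the widest 50%, Meis1 held 0% of replicate 1 and 0.121% of replicate 2, against 0.0275% to 0.0502% for Hoxa13. Meis2 then held 0.0677% and 0% in the same order, against 0.0447% to 0.0550%. With edges further in, Meis1 held 0.102% of replicate 1 and 0% of replicate 2, against 0.0216% to 0.0328% for Hoxa13.

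Under 50% reciprocal overlap, E11.0 peaks met E11.5 in 50.7% and E12.5 in 23.9%, E12.5 peaks met E11.5 in 23.5%, and Hoxa11 replicate 1 met E11.5 in 43.75%. With Hoxa13 lists of 44699 peaks, E11.0 met E11.5 in 61.0% and E12.5 met E11.5 in 57.4%. In the widest 50%, all 6 replicate 1 peaks met E11.5 (100%). The whole lists were not recomputed under these settings, so these shares have no background beside them. Whether the share of E11.0 peaks meeting E11.5 is above that of the list under them was not tested.

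The share of 100 kb windows with fewer peaks than the mean of the loci was 70.3%, 89.1% and 75.0% for Hoxa13 at E11.0, E11.5 and E12.5 and 91.3% and 95.2% for the Hoxa11 replicates. In 1 Mb windows it was 80.7%, 91.5%, 88.1%, 98.5% and 94.8%, and with the widest 50% 76.3%, 87.2%, 79.4%, 95.4% and 97.5%. Each locus is shorter than 1 Mb (700, 800 and 900 kb), so the 1 Mb means also take in sequence beside the loci. The cause of these shifts was not tested. No paired analysis was possible because each Hoxa13 stage has 1 library and no test was made.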
